A study of Homo sapiens and Mus musculus with 21 samples.

Results

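The genes described here were hardly transcribed in the human mesothelioma line H2810 under DMSO, were higher there with GSK126, an inhibitor of the histone methyltransferase EZH2, and were not raised to the same extent in a second line, H2731. They were selected on these values. The mean of the 2 DMSO libraries of H2810 had to lie under 1 CPM (the count divided by the library total and scaled to 1000000 counts) and the GSK126 mean at 0.5 CPM or more. The ratio of GSK126 to DMSO, with 0.25 CPM added to both means, had to reach 2 in H2810 and stay under 1.5 in H2731, and both GSK126 libraries of H2810 had to exceed both DMSO libraries. Genes were left out where the same ratio of the BAP1 hairpin to the random hairpin in H2810 was 0.5 or less. Of 60674 genes, 47653 met the first criterion, 187 met all those set on H2810 with the drug, 44 of these reached 1.5 in H2731 and 22 were left out for the hairpin ratio. The other 121 genes are the members: 103 protein-coding genes, 15 long noncoding RNAs, 2 processed transcripts and 1 unprocessed pseudogene.

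Mesothelioma is a tumour of the lining of the chest and other body cavities. RNA was sequenced from cultures of H2810 (BAP1 wildtype per its label) and of H2731 (BAP1 mutated), treated either with GSK126 or with its solvent DMSO. In a separate set, H2810 and MSTO-211H carried a random shRNA or an shRNA against BAP1 (shBAP1). There were 2 libraries per group, 16 in all, and mouse libraries of the series were not used. The labels give no dose, no duration, no hairpin sequence and no word on whether replicates were separate cultures, so p-values measure the spread between these libraries, which may be technical. Each genotype is represented by its own cell line, so genotype and line cannot be told apart.

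EZH2 is the catalytic subunit of Polycomb repressive complex 2 (PRC2), which places methyl groups on lysine 27 of histone H3. That mark is read by CBX proteins of Polycomb repressive complex 1 (PRC1), and together the complexes keep developmental regulators, signalling genes and lineage genes off in cells that do not use them. BAP1 is a deubiquitinase that removes the ubiquitin PRC1 places on histone H2A. In mammals Polycomb is known to settle at stretches rich in the dinucleotide CG, and many of its targets are low or off in differentiated cells and can come on when EZH2 is blocked.

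Library totals ran from 17927837 to 22927239 counts with the drug and from 19707304 to 23217215 with the hairpins. BAP1 itself was lower with its hairpin: it stood at 116 and 119 CPM with the random hairpin in H2810 against 13.4 and 21.0 with shBAP1, and at 99.2 and 102 against 15.0 and 17.3 in MSTO-211H. In every group 11 to 13 of 20 mesothelial markers reached 1 CPM. The 3 lines were far apart in some of them: UPK3B, an uroplakin of mesothelium, was at 349 CPM in H2731 with DMSO and at 0.0516 in H2810, and the mesothelin gene MSLN was at 1.92 in H2810 against 162 in MSTO-211H with the random hairpin. The cultures of H2810 in the drug and hairpin sets also differed, with the calretinin gene CALB2 at 169 CPM under DMSO and 20.3 with the random hairpin. At most 2 of 14 leukocyte markers reached 1 CPM in any group. Of 11 endothelial markers, 5 did so in H2810, with a summed level of 15.4 and 15.6 CPM under DMSO and 24.9 and 26.0 with GSK126, and 2 and 3 of them were at 0 in these groups. Of 13 fibroblast markers, 10 reached 1 CPM in H2810 in all 4 of its groups. Whether any of this has a part in the members' levels was not tested, and in bulk RNA fewer cells of a type and less RNA per cell cannot be told apart.

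The promoters of 78 of the 121 members were found in a RefSeq table (assembly GRCh38.p14) that gives 250 bases before and 50 after each gene's start. With 64.5% covered, comparing the members as a set with other genes in base composition is void, so only single promoters are described. Those of AGT, ITGA8, IL24 and GDF15 are printed because these genes lead the results below and differ among themselves in CG content, with CG dinucleotides in capitals.
AGT: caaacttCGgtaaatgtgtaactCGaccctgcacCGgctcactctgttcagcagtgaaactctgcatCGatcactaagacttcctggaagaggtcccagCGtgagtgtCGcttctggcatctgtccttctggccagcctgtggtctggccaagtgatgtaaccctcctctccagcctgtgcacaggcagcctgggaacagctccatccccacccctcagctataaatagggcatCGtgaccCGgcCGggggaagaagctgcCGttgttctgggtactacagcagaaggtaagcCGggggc
ITGA8: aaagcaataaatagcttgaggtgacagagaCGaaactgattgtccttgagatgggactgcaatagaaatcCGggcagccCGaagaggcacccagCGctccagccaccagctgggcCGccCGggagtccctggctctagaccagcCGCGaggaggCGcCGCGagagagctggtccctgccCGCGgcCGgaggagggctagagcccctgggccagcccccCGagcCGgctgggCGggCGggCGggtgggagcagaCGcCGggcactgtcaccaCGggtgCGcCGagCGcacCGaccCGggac
IL24: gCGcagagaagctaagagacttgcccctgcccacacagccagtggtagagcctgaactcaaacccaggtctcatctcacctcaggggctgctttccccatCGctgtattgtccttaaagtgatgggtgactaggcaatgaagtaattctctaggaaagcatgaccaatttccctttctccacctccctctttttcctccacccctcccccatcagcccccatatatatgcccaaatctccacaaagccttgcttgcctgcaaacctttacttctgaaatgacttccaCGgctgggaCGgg
GDF15: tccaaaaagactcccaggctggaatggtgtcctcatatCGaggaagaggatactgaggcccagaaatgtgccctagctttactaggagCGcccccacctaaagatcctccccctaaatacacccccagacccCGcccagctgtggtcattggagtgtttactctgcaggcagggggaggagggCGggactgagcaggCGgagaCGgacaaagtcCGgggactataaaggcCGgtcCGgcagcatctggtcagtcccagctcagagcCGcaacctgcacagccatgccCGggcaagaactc
These lie at chr1:230714073-230714372 on the minus strand, chr10:15719873-15720172 on the minus strand, chr19:18385908-18386207 on the plus strand for GDF15 and chr1:206897193-206897492 on the plus strand for IL24. The ITGA8 window holds 27 CG dinucleotides and 69.3% G and C, the IL24 window 4 and 52.0%, and the AGT and GDF15 windows 11 each. SEMA5B, with 7 CG dinucleotides and 42.0% G and C, and FAM180A, with 11 and 52.7%, also lie in the sparse range. So some of the members with the largest ratios have a promoter dense in CG and others a sparse one. The letters TATAAA, searched on both strands with no other motif, occur in the AGT and GDF15 windows and in 8 other members' windows, and in 10.1% of the 19098 promoters of genes in the tables. A match is a description of these letters and not a binding site.

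The largest ratios belonged to AGT and ITGA8. AGT encodes angiotensinogen, the precursor of the angiotensin peptides (ENSG00000135744, chromosome 1, 230702523 to 230714122 as deposited), and it stood at 0.167 and 0.237 CPM in the DMSO libraries of H2810 and at 3.60 and 3.47 with GSK126. Its ratio was 8.36, and the groups were far apart relative to the gap within each. ITGA8 encodes an integrin alpha chain that binds matrix proteins (ENSG00000077943, chromosome 10, 15513954 to 15719922). It was at 0.112 and 0.190 CPM with DMSO and at 3.39 and 2.75 with GSK126, a ratio of 8.29. In H2731 neither came on: AGT was at most 0.0494 CPM in any of its 4 libraries and ITGA8 had no count in all of them.

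AC099489.1, a protein-coding gene with no name in the annotation (ENSG00000188897, chromosome 16), had the next largest ratio, 6.0. It was at 0.279 and 0.190 CPM with DMSO and 2.71 and 2.60 with GSK126, and at most 0.445 in H2731. SEMA5B, a transmembrane semaphorin of axon guidance, was at 0.0558 and 0.237 CPM with DMSO and 2.09 and 1.94 with GSK126. KIF26B, an unusual member of the kinesin family, was at 0.948 and 0.758 against 5.53 and 6.32. FAM180A was at 0.669 and 0.996 against 4.85 and 6.52. GDF15, a stress-induced hormone of the transforming growth factor family, was at 0.669 and 0.996 against 4.38 and 3.82. For all 5 genes, too, each GSK126 library lay well above both DMSO libraries, with ratios of 5.70, 5.59, 5.48 and 4.02 for the last 4. LZTS1, a leucine zipper protein, had a smaller ratio (2.63) but was among the 12 highest with GSK126, at 2.71 and 2.75 CPM against 0.725 and 1.04 with DMSO. Per kilobase of annotated exon, the highest GSK126 level among the members was that of FAM180A at 2.27 CPM per kilobase, followed by GDF15 at 1.96 and C15orf48 at 1.92, against a median of 0.272.

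LRRTM4, which organises synapses, was the 1 member with no count in either DMSO library of H2810. It reached 0.626 and 0.764 CPM with GSK126. All others had reads before the drug, so "silent" means low and not absent: the median DMSO mean was 0.321 CPM and 39 members were at 0.5 CPM or more. The members thus went from a median of 6 and 7 counts in the DMSO libraries to 23 and 24 in the GSK126 libraries. With GSK126, 74 of 121 had a mean of at least 1 CPM and 63 exceeded 1 CPM in both libraries.

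**Figure D1:**
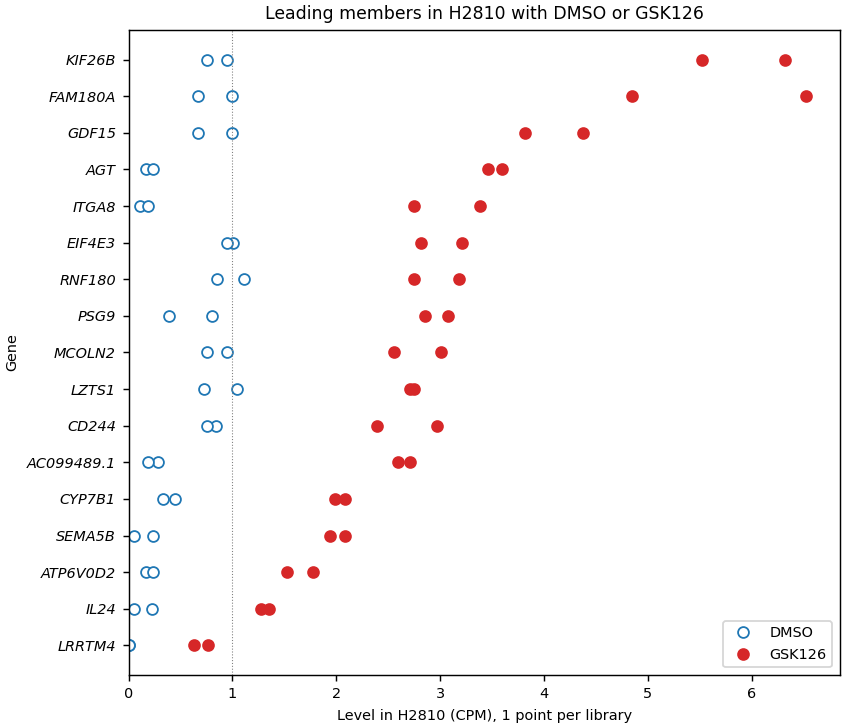
Level of 17 members in the 4 drug libraries of H2810 (horizontal axis, CPM, linear), 1 point per library; the genes are those with the 12 largest ratios or the 12 highest GSK126 means. All GSK126 points lie to the right of the DMSO points of the same gene, which the selection required, and the dotted line marks 1 CPM.

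Most ratios were small. They ran from 2.01 to 8.36 with a median of 2.33, and 74 members lay between 2 and 2.5, 27 between 2.5 and 3, 11 between 3 and 4, and 9 at 4 or more. Just inside the threshold were PRRX1 at 2.0067, ROPN1L at 2.0075 and ZNF423 at 2.0082. Just outside, meeting every other criterion, were the chemokine gene CXCL11 at 1.9964, RASGRP3 at 1.9923 and ADAM28 at 1.9836. All 114 members with enough counts for edgeR's quasi-likelihood test were called higher with GSK126 in H2810 at an adjusted p under 0.05, where 16.3% of all 15999 genes tested were called higher and 12.9% lower. The members were selected on that contrast and passed the count filter largely through it, so nothing is read from this. DESeq2 called 39, left the adjusted p of 74 blank for low counts and did not call 1. With at least 50 counts in 2 libraries 35 members were tested and all 35 were called.

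Reads of some members cannot be assigned to them alone. Exons of 47 members overlap those of another annotated gene, and the sources used here do not state whether counting used strand. For 8 members the other gene had at least 1 CPM in H2810. CCDC152 lies antisense to the selenoprotein gene SELENOP, which went from 131 to 410 CPM on average, and its own mean went from 0.198 to 0.950. ZMYND15 lies antisense to the chemokine gene CXCL16, at 3.90 and 7.06 CPM. AC107884.1 overlaps PPFIBP2, at 9.49 and 14.5 CPM. In those 3 pairs the other gene had a higher mean with GSK126 too, and the reads of the 2 genes cannot be told apart. AGT overlaps COG2, which was at 25.1 CPM with DMSO and 26.3 with GSK126, over 1127 of its 12703 exon bases. E2F5, GCOM1 and MIR137HG overlap genes whose means differed by less than 1 CPM between DMSO and GSK126. PSG3 and PSG9 belong to a family of near-identical genes and are uncertain for that reason.

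The members are spread over the genome. The largest number on a chromosome was 15 on chromosome 1, and only PSG9 and CD177 on chromosome 19 start within 100 kb of each other, 84156 bases apart. The CD177 gene encodes a neutrophil surface protein.

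A role was given to 60 members after they were known, and the groups that follow are only an ordering. Regulators of transcription and RNA numbered 11, with ratios of 2.01 to 2.58. PITX1, a homeobox factor of hindlimb and pituitary, stood at 0.446 and 0.901 CPM with DMSO and 1.82 and 1.73 with GSK126 in H2810. BARX1, a homeobox factor of jaw and stomach, was at 0.279 and 0.379 against 1.36 and 1.07. NKX2-3, a homeobox factor of gut and spleen, was at 0.0558 and 0.0948 against 0.573 and 0.459, and it had too few counts to be tested. PRRX1, a homeobox factor of mesenchyme, was at 0.0558 and 0.284 against 0.626 and 0.561. NKX2-3 and PRRX1 remained under 1 CPM in both GSK126 libraries. The others were the nuclear receptor NR4A3, the zinc finger genes KLF15, ZNF423 and ZNF385B, the cell cycle factor E2F5, the corepressor RCOR2 and the RNA-binding protein MSI1.

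Secreted signals numbered 8, with ratios of 2.08 to 8.36, AGT being the highest. IL24, a cytokine of the interleukin 10 family, was at 0.223 and 0.0474 CPM with DMSO in H2810 and at 1.36 and 1.27 with GSK126. TSLP, an epithelial cytokine that acts on dendritic cells, was at 0.335 and 0.427 against 1.25 and 1.58. CXCL10, an interferon-induced chemokine, was at 0.614 and 0.806 against 1.93 and 1.99, and its close relative CXCL11 missed the ratio threshold by a small amount. The guidance cue NTN1, the Wnt enhancer RSPO3 and ISM1 completed the group. Within H2810 all 8 were low with GSK126 in absolute terms, none above 4.38 CPM in a library.

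Receptors and membrane guidance genes numbered 8. AGTR1, the main receptor for angiotensin II, was at 0.948 and 0.664 CPM with DMSO and at 2.24 and 1.68 with GSK126, so the precursor of a hormone and its receptor were both members. CD244, a receptor of natural killer cells, was at 0.837 and 0.758 against 2.97 and 2.39. NOD2, a sensor of bacterial cell wall fragments, was at 0.390 and 0.142 against 0.990 and 1.12. The rest were SEMA5B, LRRTM4, the sorting receptor SORL1, the fatty acid and lipoprotein receptor CD36 and the adenosine receptor ADORA1. CD244 had no count in any of the 4 drug libraries of H2731.

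Channels, pumps and exchangers were the largest group, with 12 members and ratios of 2.05 to 4.20. ATP6V0D2, a subunit of the vacuolar proton pump, led at 0.167 and 0.237 CPM with DMSO and 1.77 and 1.53 with GSK126. The calcium-permeable channels TRPM8 and MCOLN2 had ratios of 2.44 and 2.75, and the sodium-calcium exchanger SLC8A1 had 2.18. FAM155A and FAM155B, paralogs that encode subunits of the sodium leak channel complex, were both members with ratios of 2.17 and 3.06. Potassium channels KCNJ2 and KCNK9, the water channel AQP4, the lens connexin GJA3, the volume-regulated channel subunit LRRC8B and the sodium pump regulator FXYD7 had ratios of 2.05 to 2.28.

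Matrix, adhesion and protease inhibitor genes numbered 6: ITGA8, the elastic fibre protein EMILIN2, the collagen COL23A1, FNDC1, the broad protease inhibitor A2M and the serpin SERPINB4, the last 2 with too few counts to be tested. Metabolic enzymes numbered 9, led by CYP7B1, an oxysterol hydroxylase of bile acid synthesis. It was at 0.446 and 0.332 CPM with DMSO and at 2.09 and 1.99 with GSK126, and it had at most 1 count in any H2731 library. Of the ubiquitin ligases, RNF125 and RNF180 were near 1 CPM with DMSO and at 2.24 to 3.18 with GSK126, and RNF182 was at 0.573 and 1.07. The pregnancy-specific glycoproteins of the placenta PSG9 (0.390 and 0.806 against 3.08 and 2.85) and PSG3 (0.0558 and 0.0948 against 0.730 and 0.408) were both members.

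**Figure D2:**
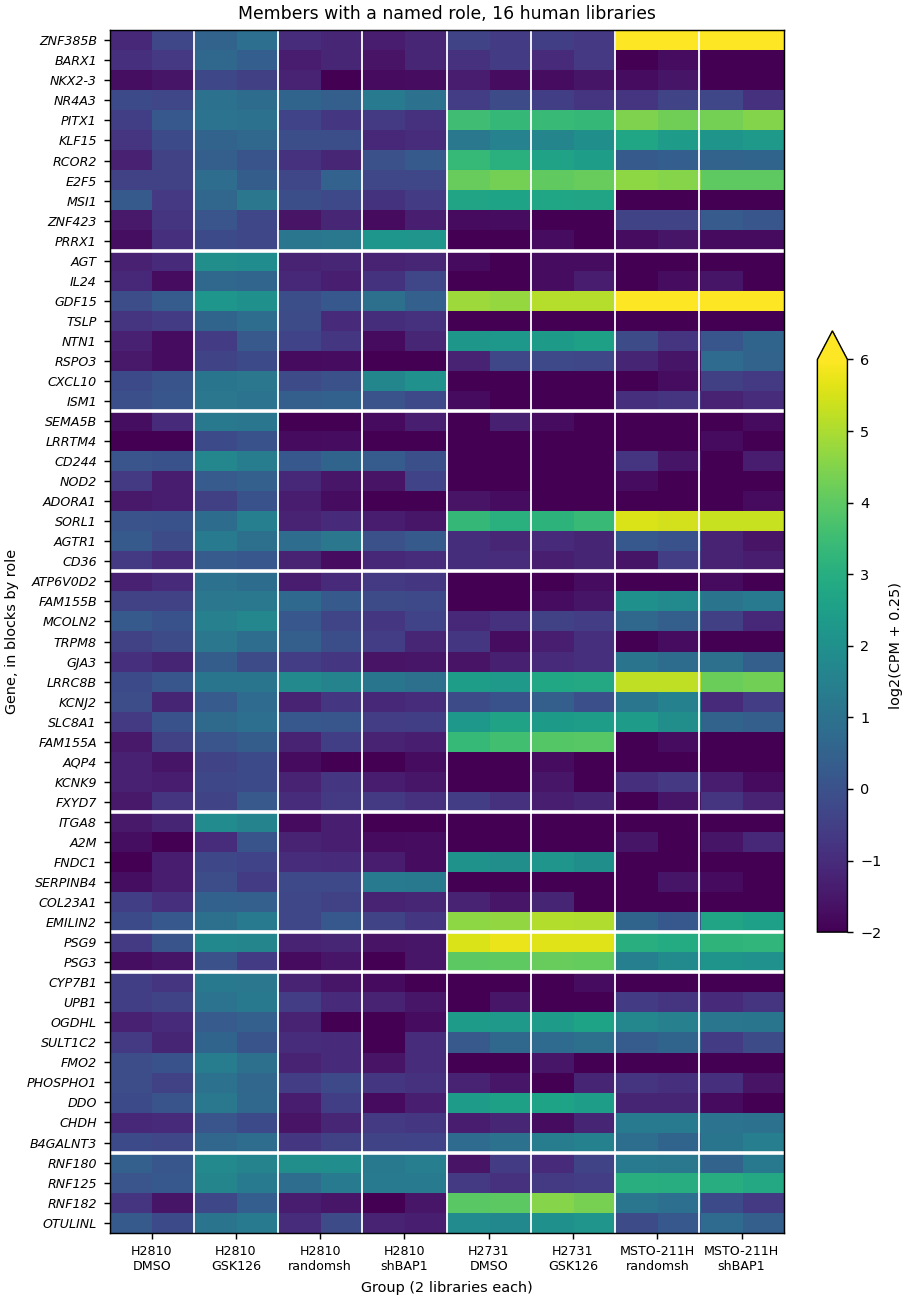
Level of the 60 members with a role in 16 human libraries as log2(CPM + 0.25), colour from -2 (dark) to 6 or more (yellow), 2 libraries per group. White horizontal lines divide the roles in the order transcription and RNA regulators, secreted signals, receptors and guidance, channels and pumps, matrix and inhibitors, pregnancy-specific glycoproteins, metabolic enzymes, and ubiquitin genes; several members are far higher in H2731 or MSTO-211H than in H2810 with GSK126.

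The members were not off in the other lines as a group. In H2731, 35 of 121 had at least 1 CPM in both groups, 43 were under 0.1 CPM in both, and 43 lay between. In MSTO-211H the same counts were 30, 42 and 49. Of the 35 members that were on in H2731, 33 had a DMSO mean there at or above the level H2810 reached with GSK126. The choice of genes favours this, since the 35 were taken at 1 CPM or more in H2731. In H2810 all members were under 1 CPM with DMSO and most ratios were small, so the count is a description. PSG9 was at 46.9 and 53.8 CPM in H2731 with DMSO, where H2810 reached at most 3.08 with the drug. BEX1, a small adaptor protein known from neurons, was at 40.1 and 39.6 CPM in H2731 with DMSO against 0.417 and 0.968 in H2810 with GSK126. GDF15 was at 28.4 and 26.2 in H2731, and at 178 and 193 in MSTO-211H with the random hairpin. EMILIN2 stood at 24.6 and 25.9 CPM, CLMN at 22.2 in both libraries and E2F5 at 17.6 and 19.9 in H2731 with DMSO. For these genes H2810 with DMSO was the lower of the 2 lines by far, where the selection had held it under 1 CPM. Levels from the drug and hairpin tables were scaled separately and are set side by side with no test.

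At the other end, 26 members were near 0 in both H2731 and MSTO-211H, among them AGT, ITGA8, SEMA5B, IL24, TSLP, CYP7B1, LRRTM4, NOD2 and AQP4. A total of 74 members were on in neither line and 18 were on in both. A DMSO mean of at least 1 CPM in H2731 was found for 29.8% of the members. It was found for 59.1% of the 44 genes raised in both lines and for 14.6% of 5047 other genes that were under 1 CPM in H2810 with DMSO and whose DMSO and GSK126 means averaged over 0.1 CPM. In MSTO-211H with the random hairpin the 3 shares were 31.4%, 43.2% and 13.2%. The 5047 genes are unlike the members, which had to reach 0.5 CPM with GSK126 in H2810. A RefSeq promoter entry was found for 38.0% of the 5047 and for 64.5% of the members. The part of these differences in the gaps was not tested. The upper limit on the H2731 ratio is part of how the first 2 sets were chosen, so their order in H2731 is a description.

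**Figure D3:**
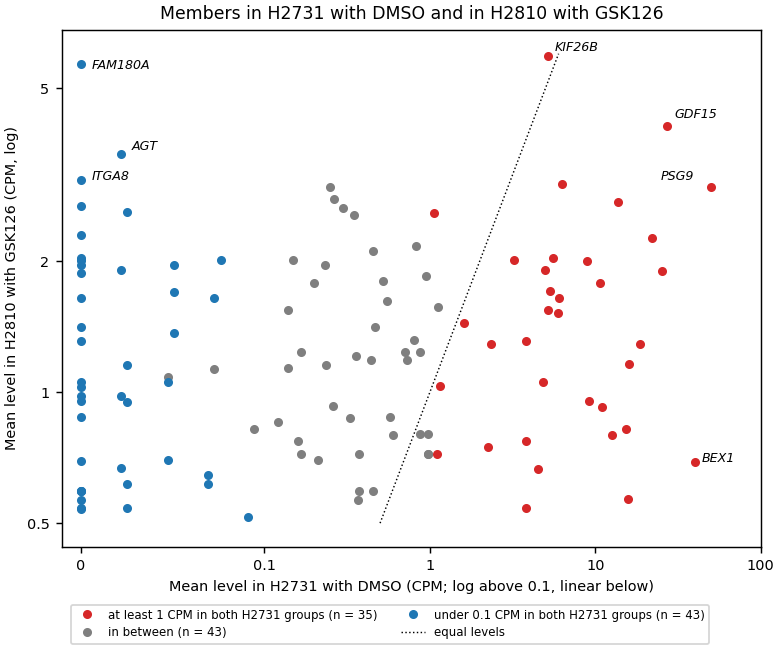
Mean level of the 121 members in H2731 with DMSO (horizontal axis, CPM, log above 0.1 and linear below) against their mean in H2810 with GSK126 (vertical axis, CPM, log). The 35 red genes had at least 1 CPM in both H2731 groups and all but 2 of them lie on or to the right of the line of equal levels; the 43 blue genes were under 0.1 CPM in both.

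The name of the gene set, on only in H2810, holds for the ratio and not for every test. H2731 ratios ran from 0.618 to just under 1.5 with a median of 1.02, and 76 of 121 were at 1 or more. In edgeR's fit, 11 members were called higher with GSK126 in H2731 and 1 lower, where 13.8% of all genes tested were called higher and 10.9% lower. Of the 114 members in that fit, 61 passed the count filter only through H2810, 12 of them with no count in H2731, and none of the 61 was called. With the filter and the fit on the 4 H2731 libraries alone, 11 of 53 were called higher and 1 lower, where 14.9% and 11.5% of all genes tested were. In the fit on all 8 drug libraries the 11 were B4GALNT3, BEX1, CLMN, EIF4E3, EMILIN2, FAM155A, GDF15, HUNK, KIF26B, LRRC8B and RNF182. Of these, 10 were also called higher on the 4 H2731 libraries alone. BEX1 went from 40.1 and 39.6 to 56.3 and 56.2 CPM and GDF15 from 28.4 and 26.2 to 34.4 and 34.2. In both the GSK126 libraries lay above the DMSO libraries by more than the gap within either group. All 11 had at least 1 CPM in both H2731 groups. RCOR2, a partner of the LSD1 demethylase complex, was the 1 lower gene, from 10.03 and 8.20 to 5.88 and 5.2 CPM in H2731, while it was higher with the drug in H2810. Since the H2731 ratio was used in the selection, these values are descriptions.

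The larger effect in H2810 was itself called for 40 of the 114 members, where 6.66% of all genes tested were called in that direction. For the other 74 the difference between the lines was not called in edgeR's fit, at the low counts these genes have. Both effects entered the selection, so this share is a description too. DESeq2 called 16, with the adjusted p of 86 left blank. With the stricter count filter 24 of the 35 members tested were called, and without the second GSK126 library of H2810 24 of 116.

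The test that the selection did not use is the effect of shBAP1 in MSTO-211H. Of the 121 members, 75 passed the count filter over all 8 hairpin libraries, 23 fell with shBAP1 in MSTO-211H and 8 rose (edgeR, adjusted p under 0.05), where 24.5% of all 15872 genes fell and 21.7% rose. Of the 75, 18 passed only through H2810, among them BRINP1, COL23A1, MSI1 and AL445250.1 with no count in MSTO-211H, so the 75 give no share to set beside those of all genes. With the filter and the fit run on the 4 MSTO-211H libraries alone, 57 members were tested, 25 fell, 12 rose and 20 were not called. That is 43.9% lower and 21.1% higher, where 29.6% of all 14410 genes fell and 29.8% rose. The median log2 change of the 57 was -0.32, against -0.0032 over all genes, and whether the members differ from other genes was not tested. The values that follow are from the fit on all 8 libraries, in which the count of falls was 15 with DESeq2, 12 with the stricter count filter and 15 without the first random hairpin library of MSTO-211H.

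BEX1 fell most and was also the member with the smallest p. It was at 27.7 and 28.2 CPM with the random hairpin and at 2.77 and 3.19 with shBAP1, a log2 change of -3.20 ± 0.14 (SE, n = 2 per group, edgeR adjusted p = 6.8e-08). KCNJ2, an inward rectifier potassium channel, went from 1.94 and 2.63 to 0.234 and 0.431 CPM (-2.72 ± 0.35, adjusted p = 8.62e-05 by edgeR). AGTR1 fell from 0.900 and 0.765 to 0.188 and 0.0861 CPM (-2.56 ± 0.48, adjusted p = 0.0012 by edgeR). For all 3 genes the hairpin groups did not overlap.

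CPED1 went from 7.87 and 6.64 to 2.11 and 1.72 CPM with shBAP1 in MSTO-211H. SLC8A1 went from 4.98 and 3.58 to 1.22 and 1.08 CPM. LRRC8B went from 37.2 and 37.7 to 18.2 and 19.3 CPM. Their log2 changes were -1.90 ± 0.17, -1.88 ± 0.23 and -0.98 ± 0.07. ZNF385B and WDR17 fell by less, with log2 changes of -0.55 and -0.83, from 127 and 116 to 84.7 and 78.8 CPM and from 18.7 and 19.2 to 10.7 and 10.3 CPM. FAM180A, among the leading members in H2810, was low in MSTO-211H and went from 0.474 and 0.478 to 0.0469 and 0.129 CPM. Its fall (-2.31 ± 0.56) was not called without the first shBAP1 library. SORL1, OSBP2 and NUDT10 were not called when any 1 library of the comparison was left out, and NUDT10 passed the filter only through H2810.

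Of the 8 that rose, RSPO3, NKD1, HUNK, CXCL10 and EMILIN2 came up from low levels by more than 2 on the log2 scale. RSPO3, which amplifies Wnt signals, was at 0.190 and 0.0956 CPM with the random hairpin and 1.5 and 1.21 with shBAP1 (3.21 ± 0.43, edgeR adjusted p = 0.00016). NKD1, a feedback inhibitor of Wnt signalling, went from 0.806 and 0.669 to 3.38 and 3.32 CPM (2.19 ± 0.27). HUNK, a protein kinase, went from 0.142 and 0.0956 to 0.797 and 1.16 CPM (3.01 ± 0.49). CXCL10 went from 0 and 0.0478, which is 1 count in all, to 0.469 and 0.388 CPM, and the size of its fitted change is uncertain for that reason. It passed the filter only through H2810. EMILIN2 rose from 1.23 and 0.908 to 6.19 and 5.51 CPM (2.46 ± 0.23) and CLMN from 5.64 and 6.07 to 10.2 and 9.99 CPM. The other 2, B4GALNT3 and MIR137HG, were near the threshold, with adjusted p of 0.0487 and 0.0498 in edgeR's fit, and neither was called when any 1 library of the comparison was left out.

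**Figure D4:**
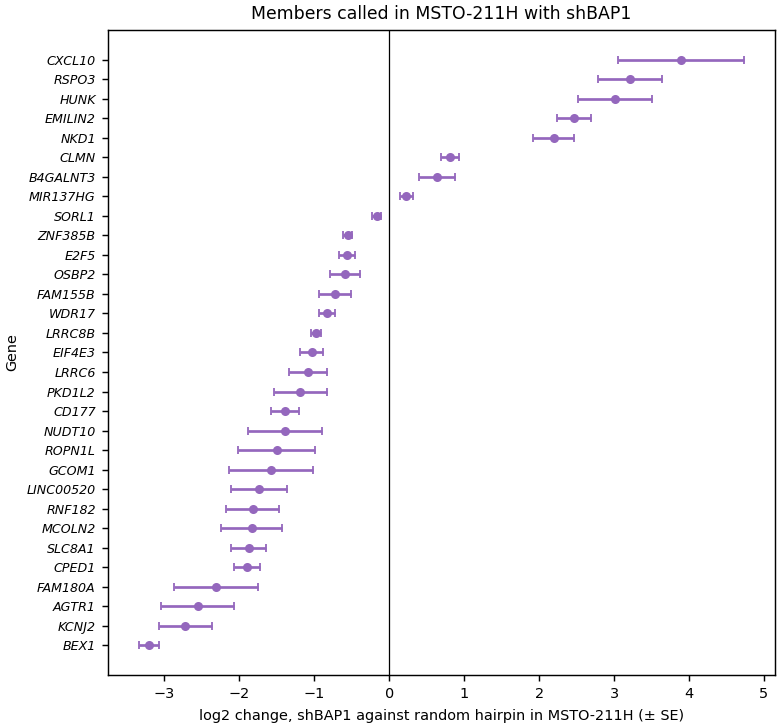
Log2 change with shBAP1 against the random hairpin in MSTO-211H (horizontal axis, ± SE from edgeR, 2 libraries per group) of the 31 members called at an adjusted p under 0.05. The 23 that fell lie left of 0, from SORL1 at -0.17 to BEX1 at -3.20, and the 8 that rose lie right of it.

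In H2810 itself, shBAP1 had been used to drop genes, so its effect on the members is a description. By edgeR 9 members were called higher and 17 lower, where 22.5% and 23.3% of all genes tested were. Of the 75 members in that fit, 29 passed the count filter only through MSTO-211H. Among these, 3 were called: GJA3, LRRC6 and PKD1L2. On the 4 H2810 libraries alone 7 of 46 were called higher and 11 lower, where 21.1% and 22% of all genes tested were. CXCL10 went from 0.649 and 0.745 CPM with the random hairpin to 2.90 and 3.86 with shBAP1. PRRX1 went from 1.95 and 2.04 to 4.36 and 4.26, and SERPINB4, too low for a test of the drug, from 0.606 and 0.596 to 2.24 and 2.08. These 3 and ROR1-AS1, RCOR2, CPED1, C15orf48, ZMIZ1-AS1 and GDF15 were thus higher with either treatment in H2810. The lower count was unstable: it was 6 with DESeq2 and between 4 and 13 with a library left out.

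Set beside each other, the 2 hairpin comparisons had CXCL10 called higher in both lines and AGTR1, FAM155B, LRRC6, LRRC8B and PKD1L2 called lower in both. For H2810, LRRC6 and PKD1L2 passed the count filter only through MSTO-211H, and for MSTO-211H, CXCL10 passed it only through H2810. The share of all genes called alike in both lines is not given here, and the selection had dropped genes by their hairpin ratio in H2810. Nothing is therefore read from the agreement of the lines for any of the genes called alike. CLMN and MIR137HG were called higher in MSTO-211H and lower in H2810, and CPED1 the reverse. CPED1 was at 2.81 and 3.28 CPM with the random hairpin and at 4.67 and 5.33 with shBAP1 in H2810. In MSTO-211H the calls of FAM155B, LRRC6 and PKD1L2 were lost without the first random hairpin library. The difference between the lines was not tested.

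The low DMSO level of some members was not kept in the other H2810 control. With the random hairpin 22 of 121 members had a mean of at least 1 CPM and 10 were at or above their GSK126 mean. No EZH2 inhibitor is named for those cultures. The members were chosen for low DMSO values, and the same counts for other low genes are not given here. Whether the members differ from other low genes in this was not tested. PRRX1 was at 1.95 and 2.04 CPM with the random hairpin, against 0.0558 and 0.284 with DMSO and 0.626 and 0.561 with GSK126. CPED1 was at 2.81 and 3.28 against 0.223 and 0.474 with DMSO and 1.04 and 1.07 with GSK126. The long noncoding RNA ROR1-AS1 was at 2.68 and 2.83, against 0.558 and 0.521 with DMSO and 1.36 and 1.94 with GSK126. RNF180, LRRC8B, LINC00520, MIR137HG, AC022239.1, SAMD13 and SERPINB4 were the other 7. The random hairpin mean was above the DMSO mean for 62 members and at or below it for the rest, and the medians were 0.347 and 0.321 CPM. The leading members AGT, ITGA8 and SEMA5B stayed low with the random hairpin, AGT at 0.173 and 0.199 CPM, ITGA8 at 0.0433 and 0.149, and SEMA5B with no count. These cultures come from separate experiments and tables, and the part of handling in the difference was not tested.

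**Figure D5:**
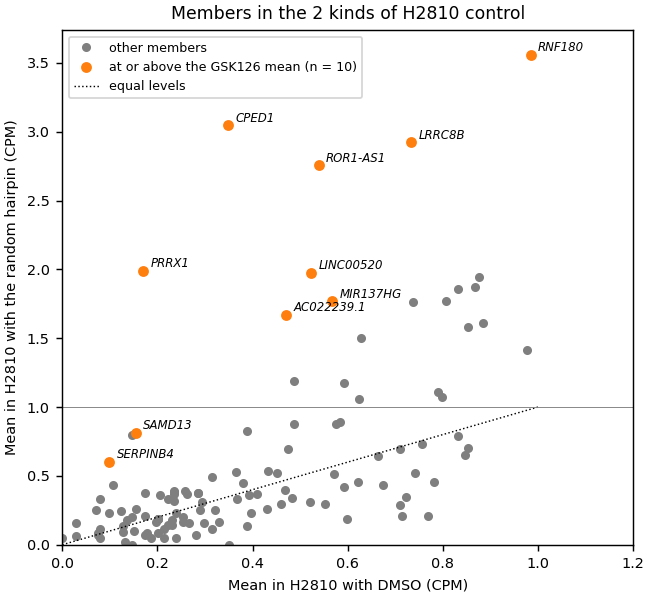
Mean level of the 121 members in H2810 with DMSO (horizontal axis, CPM) against the mean with the random hairpin (vertical axis, CPM), both linear. The 10 orange genes were at or above their GSK126 mean with the random hairpin, the dotted line marks equal levels up to 1 CPM, and the grey line marks 1 CPM.

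Genes of the Polycomb machinery are no members, so the drug comparison can be tested for them. EZH2 mRNA rose in H2810, from 32.7 and 31.9 to 38.8 and 39.5 CPM (0.23 ± 0.06 on the log2 scale, edgeR adjusted p = 0.00315). It was not called in H2731 (81.4 and 79.2 against 79.4 and 77.8 CPM). Of 13 tested PRC2 genes, 3 rose in H2810 and 3 fell. EED, which binds the methylated histone, and EPOP, a PRC2 cofactor, were the other 2 that rose. PHF19, a Polycomb-like subunit, fell most, from 177 and 176 to 137 and 130 CPM (-0.44 ± 0.04). The histone chaperones RBBP4 and RBBP7 fell by 0.10 and 0.11 on the log2 scale, RBBP4 close to the threshold (edgeR adjusted p = 0.0498). Of 20 PRC1 genes, 4 rose (BMI1, CBX2, CBX6 and RYBP) and 2 fell (PCGF3 and PCGF5). In H2731, 2 of 13 PRC2 genes rose and 1 fell, and 3 of 20 PRC1 genes rose and 5 fell. Of 9 tested PR-DUB genes, the complex of BAP1, 3 fell in each line. Of 18 tested genes that oppose Polycomb, 1 rose and 3 fell in H2810, and 1 rose and 5 fell in H2731. Among the falls in H2810, the DMSO libraries were far apart for ASH1L, at 80.0 and 97.0 CPM against 74.6 and 79.3 with GSK126. The same held for the PR-DUB gene FOXK1, at 143 and 169 CPM against 130 and 139. The list medians in H2810 were within 0.1 of 0 on the log2 scale, where the median over all genes was 0. Of all genes tested, 16.3% rose and 12.9% fell in H2810, and 13.8% and 10.9% did so in H2731. Whether the lists differ from these shares was not tested.

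Members of the lists of classical Polycomb targets made up a small number of the raised genes. Over all genes, 187 of the 47653 under 1 CPM were raised, which is 0.392%, or 3.57% of the 5234 whose DMSO and GSK126 means in H2810 averaged over 0.1 CPM. Of 39 HOX genes, 9 were under 1 CPM in H2810 with DMSO, and only 6 of these averaged over 0.1 CPM. None of them was among the 187 raised genes, and none is a member. Of 194 other developmental transcription factors, 115 were under 1 CPM and 6 were raised, which is 5.22%, or 22.2% of the 27 over the lower limit: the 4 members PITX1, PRRX1, BARX1 and NKX2-3, then NKX6-1, which was raised in H2731 too, and ONECUT2, which was left out for its hairpin ratio. Of 119 growth factor and morphogen ligands, 73 were under 1 CPM and 4 were raised (5.48%, or 14.8% of 27), of which NTN1 and RSPO3 are members and GREM1 and TGFA were raised in both lines. Of 95 growth factor and guidance receptors, 34 were under 1 CPM and 1, EPHA3, was raised (2.94%, or 6.67% of 15), also in H2731. The shares of these 3 lists were above those over all genes, on few genes each and with no test, since the raised genes were selected on this contrast. The shares over all genes also count noncoding RNAs and pseudogenes, unlike these lists of transcription factors, ligands and receptors. The part of that in the gap was not tested. Among the HOX genes with enough counts, which are no members, 3 of 31 rose and 4 fell in H2810, and 6 of 31 rose in H2731 (edgeR). Of all genes tested, 16.3% rose and 12.9% fell in H2810, and 13.8% rose in H2731.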

How the data were processed

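Per the labels' protocols, poly-A RNA libraries were made with a TruSeq kit and read single-end on an Illumina HiSeq. Per the submitters' processing notes, TopHat2 2.0.12, TopHat, HTSeq and DESeq2 were used, with no role stated; the human build and the strand setting are not given in the sources used here. Values are whole-number counts for each Ensembl gene, deposited without normalization. All 121 members were found by ID in the GENCODE v44 annotation of GRCh38, which gave exons and lengths.

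Both human tables were fitted whole in edgeR 4.0.16 (R 4.3.3; filterByExpr, TMM, all 8 libraries, quasi-likelihood tests, Benjamini-Hochberg over all genes tested, calls at 0.05), and the procedure was tested on simulated data. Alternatives were RLE scaling, DESeq2 1.42.0, no filter, 50 counts in 2 libraries, only the 2 groups compared, a replicate block and each library left out. The main fit did not pair libraries by replicate number. Members and lists were chosen with earlier results of these data known. Named genes were the 12 members with the largest ratios and the 12 with the highest GSK126 means, up to 4 per list or family, the 8 highest in H2731, up to 6 per direction with the smallest p in MSTO-211H, those nearest the ratio threshold, Polycomb genes and close neighbours; other names were chosen after their values were seen, as were the roles. Some genes are not reported here.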

Additional observations from a re-analysis of the deposited data

Results flagged for a closer look

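The response to GSK126 differed between H2810 and H2731 for the following 8 Polycomb and Polycomb-opposing genes, none of them a member (edgeR interaction, log2, H2810 minus H2731). EZH2 differed by 0.28 ± 0.07 (adjusted p = 0.00989), with a rise in H2810 and no call in H2731, and missed the threshold with DESeq2 (adjusted p = 0.0903) and without the second GSK126 library of H2810 (adjusted p = 0.0528 by edgeR). PHF19, a PRC2 subunit, differed by -0.39 ± 0.06, with a fall in H2810 and no call in H2731. PCGF5, a PRC1 subunit, differed by -0.41 ± 0.06, falling in H2810 (-0.13) and rising in H2731 (0.29). BMI1, another PRC1 subunit, differed by -0.50 ± 0.11 because it rose less in H2810 (0.31) than in H2731 (0.81). The readers of the methyl mark CBX2 and CBX6 differed by 0.49 ± 0.09 and 0.28 ± 0.06. PHC2 at 0.18 ± 0.06 (adjusted p = 0.0496) and the remodelling enzyme SMARCA2 at -0.26 ± 0.08 (adjusted p = 0.0427) were not called with DESeq2, with no filter on low counts, or with most single libraries left out.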

How the results depend on the processing

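The selection rests on few counts. It found 108 genes with TMM-adjusted CPM, all among the 121, 83 where the hairpin ratio had no offset (an alternative chosen after seeing the data, all among the 121), and 112 to 149 with a library left out, keeping 79.3% to 97.5% of the 121. With an offset of 1 CPM it found 24 genes, 18 of them members. In MSTO-211H, members lower with shBAP1 numbered 15 with DESeq2, 12 with at least 50 counts in 2 libraries and 15 to 18 with a library left out; the replicate block gave 22, and 8 higher as without it. In H2810 with shBAP1, 5 were higher with the count filter; 6 were lower with DESeq2, 9 with the count filter, 11 with only the 2 groups compared and 4 to 13 with a library left out. For GSK126, members called in H2810 numbered 39 with DESeq2, 35 with the count filter and 83 to 88 with a library left out; in H2731, 5 were higher with DESeq2, and leaving out a library gave 6 to 8; the difference was called for 16 with DESeq2, 24 with the count filter and 24 to 34 with a library left out. Lower calls under the count filter come with fewer members tested (30 in the hairpin table and 35 in the drug table). Those with DESeq2 come partly with blank adjusted p. The cause of the others was not tested. KMT2C, a Polycomb-opposing gene not called with GSK126 in H2810, was called at 0.26 without the second DMSO library and at -0.21 without the first. Same-numbered libraries of a comparison correlated at 0.0327 to 0.0746 in their deviations, over all genes with enough counts. Some genes still share a replicate difference. In every drug group KMT2C was lower in replicate 1 than in replicate 2. The same held for other Polycomb-opposing genes, among them KMT2A, KMT2D, EP300, CREBBP and ASH1L, but not for SMARCB1 or SMARCC1. KMT2C was at 105 and 144 CPM with DMSO and 123 and 134 with GSK126 in H2810. In H2731 KMT2C was at 87.0 and 96.8 with DMSO and 95.3 and 105 with GSK126. Why a call was lost under the block was not tested.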
